A study of Mus musculus with 12 samples.

Results

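Messenger RNA of 9 inflammatory chemokine genes was followed in mouse splenic cDC2, the type 2 conventional dendritic cells that take up antigen and show it to CD4 T cells. The genes, Ccl3, Ccl4, Ccl5, Ccl6, Ccl9, Cxcl2, Cxcl9, Cxcl10 and Cxcl16, were chosen by name, and they are 9 of the 55322 genes of the expression table. All 9 were found, and 8 passed the filter on low values and were tested, which left out Cxcl2.

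Chemokines are small secreted proteins that steer leukocytes by binding G protein-coupled receptors on the cells they attract. Ccl3, Ccl4 and Ccl5 draw effector T cells, natural killer (NK) cells and monocytes, Ccl6 and Ccl9 are rodent ligands of Ccr1, Cxcl9 and Cxcl10 are interferon-induced ligands of Cxcr3 on effector T cells, Cxcl2 draws neutrophils through Cxcr2, and Cxcl16 is a membrane-anchored ligand of Cxcr6 that can be shed. Dendritic cells of the spleen make several of them when they sense bacterial lipopolysaccharide (LPS).

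RNA-seq was done on 12 libraries in 4 groups of 3, all from mice of 7 to 8 weeks given LPS at 5 mg/kg into the peritoneum and sampled at day 4, so no group was untreated. The first pair of groups, L-cDC2 (tdTomato+) and M-cDC2 (tdTomato-), came from Il7r-cre; Rosa26-lsl-tdTomato mice, in which Cre driven by Il7r, the interleukin-7 receptor gene active in lymphoid progenitors, leaves a lasting red label. CLP-cDC2 and CDP-cDC2 were CD45.2+ cells grown from wild-type common lymphoid progenitors (CLPs) or common dendritic cell progenitors (CDPs) injected into the marrow of B6.SJL (CD45.1+) hosts. The question given for the design was how alike cDC2 from transferred CLPs and L-cDC2 are. The red label records that Il7r was active at some time in a cell's ancestry and is not itself a progenitor type, and the transferred cells matured in hosts that kept their own blood cells. The labels do not say which markers were used to sort cDC2, whether the tdTomato+ and tdTomato- cells shared mice, or whether each library is a separate animal. The p-values therefore cover the spread among these libraries only, and it may be technical.

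Values were fragments per kilobase of gene and assigned fragments (FPKM) as deposited, and the depth recovered from them ran from 26543345 to 73732243 assigned reads. Of 13 genes listed as cDC2 markers, all averaged at least 1 FPKM in L-, M- and CDP-cDC2, and 12 did in CLP-cDC2, where the lectin Mgl2 stood at 0.225 FPKM. That level does not by itself show what the cells are. It was reached by 6, 7, 8 and 9 of 9 markers of type 1 conventional dendritic cells (cDC1) in L-, M-, CLP- and CDP-cDC2. Of 11 NK cell markers, 10, 1, 4 and 2 reached it in the same order of groups. CDP-cDC2 replicate 3 stood apart on the second principal component of all tested genes and M-cDC2 replicate 3 on the third. Differences below are in log2(FPKM + 1) from limma over all 14538 tested genes, with a standard error (SE), and "called" means a Benjamini-Hochberg adjusted p under 0.05. In bulk RNA, fewer expressing cells and less RNA per cell cannot be told apart for any value below.

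Both pairs of genes whose levels moved most alike across the 12 libraries, Ccl6 with Ccl9 (Pearson r = 0.90) and Cxcl9 with Cxcl10 (r = 0.91), are printed by the 250 bases before their start, the stretch where factors that turn them on can bind. The r values describe log2 levels over 12 libraries that share a kit and a treatment. The sequences are from RefSeq (GRCm38.p6), run 5′ to 3′ in the direction of transcription, and end at the base before the start. Their positions are on that build and do not match the gene positions printed below as deposited. For Ccl6 the deposited gene ends at 83483913, while the printed stretch begins at 83593088. The promoter table matched 6 of the 9 genes by symbol, and Ccl4, Ccl5 and Cxcl16 are not among them. Capitals mark matches on either strand to an interferon-stimulated response element (GAAA repeated after 2 bases of any kind), a GAS element (TTCNNNGAA), the NF-kB consensus, an ETS core (GGAAGT), a C/EBP element (TTGCNNNAA) or a TATA box (TATAAA).
Ccl6 (chr11:83593088-83593337, minus strand): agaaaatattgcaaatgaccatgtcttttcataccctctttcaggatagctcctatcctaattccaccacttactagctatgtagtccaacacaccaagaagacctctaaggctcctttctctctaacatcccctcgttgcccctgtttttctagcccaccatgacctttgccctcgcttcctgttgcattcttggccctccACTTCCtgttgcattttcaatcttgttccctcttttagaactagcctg
Ccl9 (chr11:83578637-83578886, minus strand): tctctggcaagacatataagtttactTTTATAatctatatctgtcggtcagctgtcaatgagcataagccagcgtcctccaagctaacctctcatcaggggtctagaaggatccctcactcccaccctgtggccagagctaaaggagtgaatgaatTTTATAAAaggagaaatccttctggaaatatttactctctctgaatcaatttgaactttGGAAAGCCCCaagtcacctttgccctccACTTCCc
Cxcl9 (chr5:92328080-92328329, minus strand): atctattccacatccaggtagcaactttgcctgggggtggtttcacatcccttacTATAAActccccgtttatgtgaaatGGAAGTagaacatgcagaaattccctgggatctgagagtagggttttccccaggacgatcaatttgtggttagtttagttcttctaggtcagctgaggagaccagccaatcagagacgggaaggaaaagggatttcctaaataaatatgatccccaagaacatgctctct
Cxcl10 (chr5:92348890-92349139, minus strand): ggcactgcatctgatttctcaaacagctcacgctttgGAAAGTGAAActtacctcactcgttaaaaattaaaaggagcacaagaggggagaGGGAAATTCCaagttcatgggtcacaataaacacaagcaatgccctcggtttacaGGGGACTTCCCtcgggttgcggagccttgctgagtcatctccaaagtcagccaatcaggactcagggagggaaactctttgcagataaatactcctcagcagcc
The Ccl6 and Ccl9 stretches shared a run of 13 bases, gccctccacttcc in plain letters, which began 55 bases before the start of Ccl6 and 14 before that of Ccl9. The ETS core in capitals lay in this run in both genes, on the opposite strand. The Cxcl9 and Cxcl10 stretches shared a run of 11 bases (cagccaatcag), 68 bases before the start of Cxcl9 and 57 before that of Cxcl10. Of the printed 4, the Cxcl10 stretch alone held the interferon element, at 213 to 204 bases before the start, and it held NF-kB matches at 159 to 150 and at 104 to 94 bases, the latter overlapping an ETS core. Ccl9 held an NF-kB match at 35 to 26 bases, and matches to the TATA box further up. None of the 4 held a GAS or C/EBP match. Among all 32851 promoters of the same length, 2.98% held the interferon element, 7.02% the GAS element, 7.25% the NF-kB consensus, 19.7% the ETS core, 8.29% the C/EBP element and 12.4% the TATA box. A match describes letters in this window, and says nothing of binding in these cells.

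The CC chemokines Ccl5, Ccl4 and Ccl3 made up most of the chemokine mRNA in every group. On the per-length scale of FPKM, the summed level of the 9 genes was 689 ± 23.7 in L-cDC2, 559 ± 56.3 in M-cDC2, 278 ± 54.0 in CLP-cDC2 and 488 ± 97.8 in CDP-cDC2 (SD, n = 3 each). Ccl5 supplied 66.5% of this sum in L-cDC2, 51.6% in M-cDC2, 49.6% in CDP-cDC2 and 25.9% in CLP-cDC2. Without Ccl5 the sums lay closer together, at 231 ± 6.37, 271 ± 23.6, 204 ± 21.8 and 244 ± 34.7 FPKM (SD, n = 3) in L-, M-, CLP- and CDP-cDC2. The order of the genes by mean level was Ccl5, Ccl4, Ccl3, Ccl6, Cxcl16 in 3 groups, and in CLP-cDC2 Ccl4 (34.5% of the sum) came before Ccl5. Cxcl10, Ccl9 and Cxcl9 followed at 1.14 to 11.5 FPKM on average, and Cxcl2 was last in every group, under 1 FPKM. Ranked among all 55322 genes of the table, Ccl3, Ccl4 and Ccl5 stood above 97.8% of genes in every group, and Ccl6 above 93.0%.

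**Figure D1:**
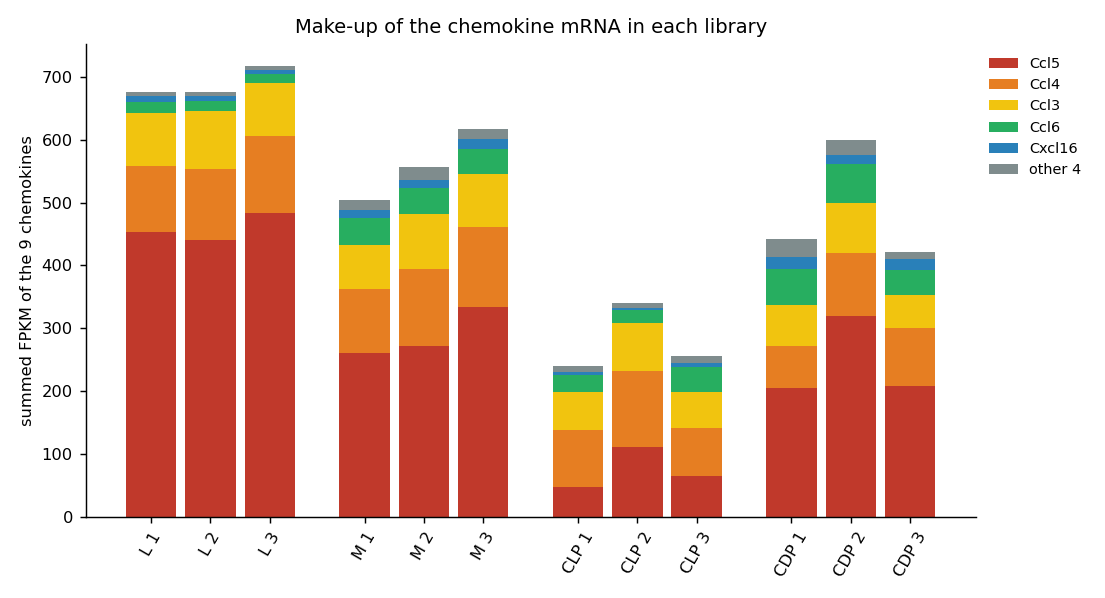
Each bar is 1 library, and its height is the summed FPKM of the 9 chemokines, divided by gene, with Ccl9, Cxcl2, Cxcl9 and Cxcl10 joined as the other 4. The Ccl5 segment is tallest in the 3 L-cDC2 libraries (440 to 484 FPKM) and shortest in the 3 CLP-cDC2 libraries (47.7 to 111 FPKM).

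Cells of lymphoid origin were compared with cells of myeloid origin in both models. In the reporter mice, Ccl6 and Ccl9 fell in L-cDC2 relative to M-cDC2, and 0 of the 8 tested chemokines were called higher and 2 lower, where 1.29% of all tested genes were called higher and 0.44% lower. Of the 8, Ccl5 did not overlap between the groups on the high side and Ccl6, Ccl9, Cxcl9 and Cxcl16 did not on the low side, where 12.7% and 6.67% of all tested genes did not overlap in these directions. In the transfer model, Ccl5, Ccl6, Cxcl9, Cxcl10 and Cxcl16 were lower in CLP-cDC2 than in CDP-cDC2, which makes 5 called lower and 0 higher, against 6.12% and 7.02% of all tested genes. Of these, Ccl5, Cxcl10 and Cxcl16 did not overlap between the groups, as was the case for 13% of all tested genes in that direction. The median difference of the 8 was -0.51 in the reporter mice and -0.87 in the transfer model, beside 0.04 and -0.01 over all tested genes. The list was chosen with earlier results of these data known, so these shares and medians are a description only. The count of 5 was the less stable: it was 2 without CLP-cDC2 replicate 2 or CDP-cDC2 replicate 1, 3 without CLP-cDC2 replicate 3 or CDP-cDC2 replicate 2, 6 without CDP-cDC2 replicate 3, and 2 when CLP- and CDP-cDC2 were fitted alone.

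**Figure D2:**
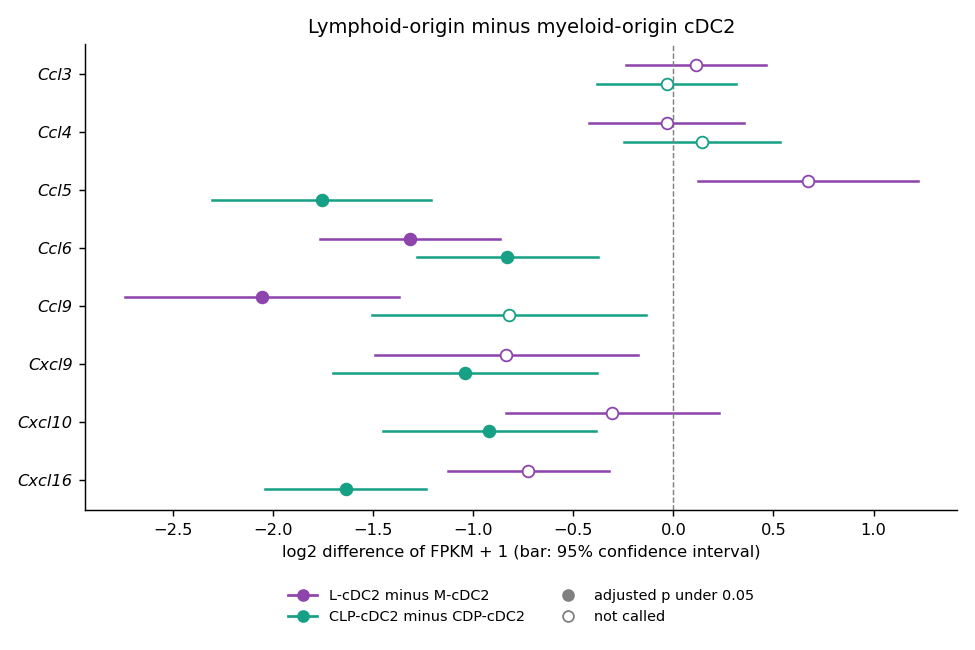
Points are log2 differences of FPKM + 1 for the 8 tested chemokines, lymphoid minus myeloid origin, in the reporter mice (L-cDC2 minus M-cDC2) and in the transfer model (CLP-cDC2 minus CDP-cDC2), with 95% confidence intervals, filled where the adjusted p was under 0.05. Most points lie left of 0, and Ccl5 lies on opposite sides in the models (0.67 and -1.76).

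Ccl5 (ENSMUSG00000035042, chromosome 11 from 83416604 to 83421344 as deposited, minus strand, build not given), also called RANTES, attracts effector and memory T cells and NK cells. It was the most abundant of the 9 in L-, M- and CDP-cDC2 and second to Ccl4 in CLP-cDC2. The libraries of L-cDC2 read 453, 440 and 484 FPKM for Ccl5, those of M-cDC2 261, 272 and 334, those of CLP-cDC2 47.7, 111 and 64.3, and those of CDP-cDC2 205, 319 and 208. Every L-cDC2 library was above every M-cDC2 library, every CLP-cDC2 library was below every CDP-cDC2 library, and M- and CDP-cDC2 overlapped. Ccl5 averaged 459 ± 22.6 FPKM in L-cDC2, 1.59-fold the 289 ± 39.4 in M-cDC2 (SD, n = 3). The log2 difference was 0.67 ± 0.25 (SE), with a 95% interval from 0.12 to 1.22 that did not pass the test (limma adjusted p = 0.41). In the transfer model it averaged 74.3 ± 32.8 FPKM in CLP-cDC2, 3.28-fold below the 244 ± 64.9 of CDP-cDC2 (SD, n = 3), and fell by 1.76 ± 0.25 (SE) on the log2 scale (limma adjusted p = 0.0011).

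The difference between both lineage differences was 2.43 ± 0.36 for Ccl5 (SE, 95% interval 1.65 to 3.20, limma adjusted p = 0.0035). It was the single member called in that test of 8, where 3.61% of all tested genes were called higher and 2.38% lower. It was called under all the alternatives run, with adjusted p from 0.00015 to 0.031 and values of 2.16 to 2.77. Quantile normalization moved the median of this difference over all genes from 0.05 to -0.06, and that of Ccl5 to 2.62. The reporter difference alone was called in some settings: adjusted p was 0.017 when L- and M-cDC2 were fitted alone and 0.025 with array weights.

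NK cell markers moved with Ccl5 between the reporter groups, and NK cells are a known source of Ccl5. The 11 NK cell markers, Ccl5 not among them, summed to 204 to 300 FPKM in the L-cDC2 libraries, against 9.13 to 11.4 in M-cDC2, 8.996 to 19.7 in CLP-cDC2 and 6.31 to 18.7 in CDP-cDC2, and 8 of the 9 tested were called higher in L-cDC2 than in M-cDC2. Prf1, the pore-forming protein of killer cells, was at 0 in all CDP-cDC2 libraries. The 9 T cell markers summed to 29.0 to 37.0 FPKM in L-cDC2, 1.55 to 3.47 in M-cDC2, 7.58 to 14.9 in CLP-cDC2 and 2.58 to 5.02 in CDP-cDC2, and Cd3e was at 0 in all M-cDC2 libraries. The part of these cells in the Ccl5 level of L-cDC2 was not tested.

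**Figure D3:**
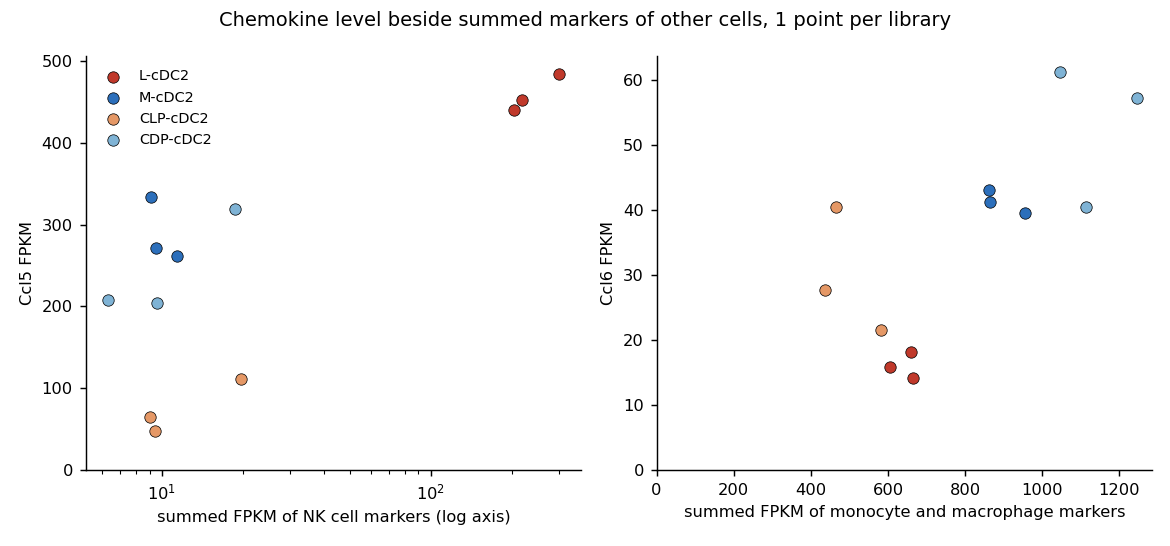
Each point is 1 library: left, Ccl5 FPKM against the summed FPKM of 11 NK cell markers (log axis), and right, Ccl6 FPKM against the summed FPKM of 16 monocyte and macrophage markers. The 3 L-cDC2 libraries stand alone at 204 to 300 FPKM of NK markers, and the other 9 libraries span 47.7 to 334 FPKM of Ccl5 at 6.31 to 19.7 FPKM of NK markers.

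Ccl3 and Ccl4, the macrophage inflammatory proteins, were abundant in all 4 groups, and neither lineage comparison passed the test for either gene. Ccl3 (ENSMUSG00000000982, chromosome 11 from 83538670 to 83540181, minus strand) read 83.7, 93.5 and 84.0 FPKM in L-cDC2, 69.5, 87.0 and 85.8 in M-cDC2, 60.04, 75.9 and 56.3 in CLP-cDC2 and 65.4, 79.7 and 52.9 in CDP-cDC2. The groups of each lineage comparison overlapped, while all CLP-cDC2 libraries were below all L-cDC2 libraries. Its lineage difference was 0.11 ± 0.16 in the reporter mice (95% interval -0.24 to 0.46, limma adjusted p = 0.86) and -0.03 ± 0.16 in the transfer model (-0.38 to 0.31, limma adjusted p = 0.91). Ccl4 (ENSMUSG00000018930, chromosome 11 from 83553410 to 83555509, plus strand) read 106, 113 and 123 FPKM in L-cDC2, 102, 123 and 127 in M-cDC2, 90.2, 121 and 77.2 in CLP-cDC2 and 67.2, 101 and 91.9 in CDP-cDC2. Those ranges overlapped in both lineage comparisons. Its lineage difference was -0.03 ± 0.18 (95% interval -0.42 to 0.35, limma adjusted p = 0.97) and 0.14 ± 0.18 (-0.25 to 0.53, limma adjusted p = 0.64), and both changed sign under quantile normalization. The intervals leave room for differences of about the size of their ends, so the groups are not shown to be equal.

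Ccl6 and Ccl9, Ccr1 ligands known from macrophages and myeloid cells, stood below M-cDC2 levels in L-cDC2 by more than the spread between libraries. Ccl9 (ENSMUSG00000019122, chromosome 11 from 83463745 to 83469462, minus strand) read 2.25, 2.04 and 1.75 FPKM in L-cDC2, 10.9, 12.8 and 10.9 in M-cDC2, 3.33, 3.64 and 5.97 in CLP-cDC2 and 10.2, 13.1 and 3.88 in CDP-cDC2. The 3 L-cDC2 libraries were below all others, and CDP-cDC2 replicate 3 fell within the range of CLP-cDC2. Its mean was 5.73-fold higher in M-cDC2 (11.5 ± 1.12) than in L-cDC2 (2.01 ± 0.254 FPKM, SD, n = 3), and it fell by 2.06 ± 0.32 (SE) on the log2 scale in L-cDC2 (limma adjusted p = 0.0027). Between CLP-cDC2 (4.31 ± 1.45) and CDP-cDC2 (9.06 ± 4.71 FPKM) the difference of -0.82 ± 0.32 did not pass the test (limma adjusted p = 0.11). It was -1.27 and called without CDP-cDC2 replicate 3 (limma adjusted p = 0.0034).

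Ccl6 (ENSMUSG00000018927, chromosome 11 from 83478708 to 83483913, minus strand) read 18.2, 15.9 and 14.2 FPKM in L-cDC2, 43.1, 41.3 and 39.6 in M-cDC2, 27.7, 21.5 and 40.5 in CLP-cDC2 and 57.3, 61.2 and 40.4 in CDP-cDC2. L-cDC2 was lowest with no overlap, and the highest CLP-cDC2 library just passed the lowest CDP-cDC2 library. Ccl6 averaged 2.57-fold higher in M-cDC2 than in L-cDC2 and fell by 1.31 ± 0.21 (SE) on the log2 scale in L-cDC2 (limma adjusted p = 0.0033). In CLP-cDC2 it fell by 0.83 ± 0.21 against CDP-cDC2 (limma adjusted p = 0.021), 1.77-fold by the means. That call was lost when CLP- and CDP-cDC2 were fitted alone (limma adjusted p = 0.098) and when replicate 1 (0.063) or 2 (0.091) of CLP-cDC2 or 1 (0.054) or 2 (0.069) of CDP-cDC2 was left out. The reporter calls of Ccl6 and Ccl9 held under every alternative run, with adjusted p of at most 0.037 and 0.030. The lineage differences of the models were not shown to differ for Ccl6 (-0.48 ± 0.29, limma adjusted p = 0.33) or Ccl9 (-1.24 ± 0.45, limma adjusted p = 0.11).

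The summed markers of monocytes and macrophages, cells that also make Ccl6 and Ccl9, moved in the same direction. The 16 markers summed to 606 to 664 FPKM in L-cDC2 and 862 to 955 in M-cDC2, where 3 of 11 tested were called lower in L-cDC2. Cd68 (456 FPKM in L-cDC2, 526 in M-cDC2) and Lyz2 (106 and 274) had the highest means of the 16. The median difference of the 11 was -0.20. Of the 8 not called, Ly6c2 (0.51) and Adgre1 (0.11) were above 0, and C1qa, C1qb and C1qc lay within -0.05 to 0.0023. They summed to 437 to 582 FPKM in CLP-cDC2 and 1045 to 1245 in CDP-cDC2, where 7 of 11 were called lower in CLP-cDC2. None of the 16 was at 0 in all libraries of a group. In the same comparison 9 of 13 cDC2 markers were called lower in CLP-cDC2 and 0 higher. The part of either in the chemokine differences was not tested.

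**Figure D4:**
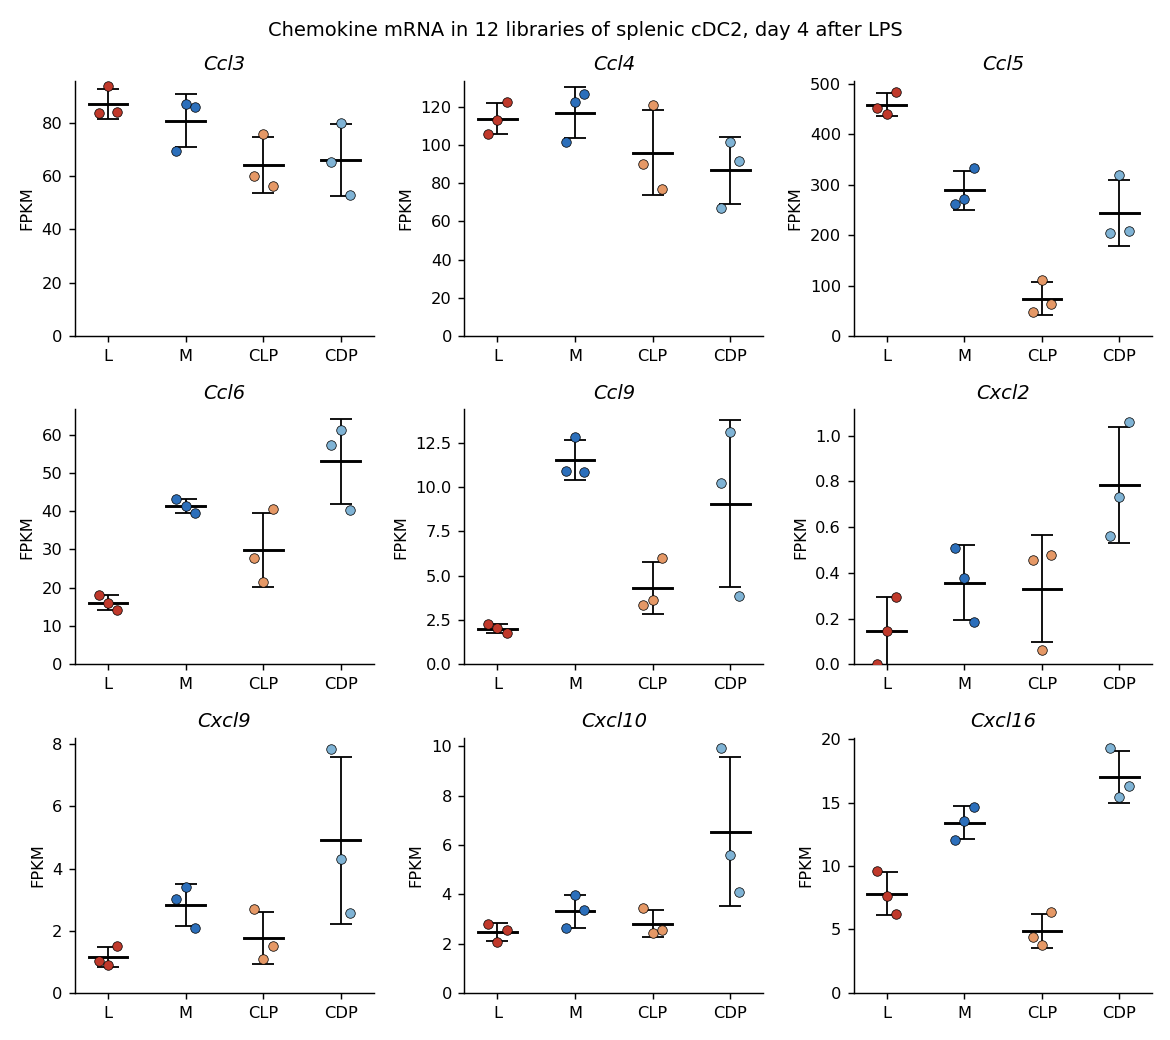
Each panel is 1 chemokine and each point 1 library of L-, M-, CLP- or CDP-cDC2. The vertical axis is FPKM from 0, horizontal bars are group means and whiskers 1 SD (n = 3). Ccl3 and Ccl4 lie at similar heights in all groups, Ccl6 and Ccl9 are lowest in L-cDC2, and Ccl5 and Cxcl16 are lowest in CLP-cDC2.

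Cxcl9 and Cxcl10, which draw Cxcr3-bearing effector T cells and NK cells, were low in all groups and had their highest mean in CDP-cDC2. Cxcl9 (ENSMUSG00000029417, chromosome 5 from 92469206 to 92475938, minus strand) read 1.02, 0.912 and 1.51 FPKM in L-cDC2, 3.02, 3.41 and 2.095 in M-cDC2, 2.704, 1.08 and 1.51 in CLP-cDC2 and 7.85, 4.31 and 2.58 in CDP-cDC2. All M-cDC2 libraries were above all L-cDC2 libraries, and the lowest CDP-cDC2 library was within the range of CLP-cDC2. Cxcl9 fell by 1.04 ± 0.30 (SE) on the log2 scale in CLP-cDC2 against CDP-cDC2 (limma adjusted p = 0.041), while the difference of -0.83 ± 0.30 between L- and M-cDC2 did not pass the test (limma adjusted p = 0.38). Cxcl10 (ENSMUSG00000034855, chromosome 5 from 92494497 to 92496748, minus strand) read 2.80, 2.07 and 2.55 FPKM in L-cDC2, 2.62, 3.97 and 3.35 in M-cDC2, 3.46, 2.44 and 2.55 in CLP-cDC2 and 9.95, 5.61 and 4.09 in CDP-cDC2. CDP-cDC2 stood above the other 3 groups with no overlap, and these overlapped each other. Cxcl10 fell by 0.92 ± 0.25 (SE) in CLP-cDC2 against CDP-cDC2 (limma adjusted p = 0.029), a 2.33-fold difference of means, and the reporter difference was -0.30 ± 0.25 (limma adjusted p = 0.77).

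Both calls in the transfer model were close to the threshold. With CLP- and CDP-cDC2 fitted alone the limma adjusted p was 0.13 for Cxcl9 and 0.11 for Cxcl10, and with quantile normalization it was 0.061 and 0.059. Cxcl10 also lost its call when replicate 2 (0.10) or 3 (0.076) of CLP-cDC2 or replicate 1 of CDP-cDC2 (0.069) was left out. Cxcl9 lost its call with any 1 of 9 libraries left out: replicates 2 and 3 of CLP-cDC2, 1 and 2 of CDP-cDC2, 1 and 2 of M-cDC2 and all of L-cDC2 (adjusted p 0.051 to 0.16). Of the exonic bases of Cxcl10, 133 of 2252 overlap the antisense gene Art3, which averaged 0.141 to 0.361 FPKM, and it is not given whether counting used the strand.

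Cxcl16 (ENSMUSG00000018920, chromosome 11 from 70344809 to 70350810, minus strand), the transmembrane chemokine and scavenger receptor of dendritic cells and macrophages, was lower in CLP-cDC2 than in CDP-cDC2. It read 9.58, 7.64 and 6.21 FPKM in L-cDC2, 12.04, 13.5 and 14.7 in M-cDC2, 4.41, 3.81 and 6.39 in CLP-cDC2 and 19.3, 15.4 and 16.3 in CDP-cDC2. The libraries of both lymphoid groups were below those of both myeloid groups with no overlap, and CDP-cDC2 was above M-cDC2 in every library. Cxcl16 averaged 17.0 ± 2.03 FPKM in CDP-cDC2, 3.50-fold the 4.87 ± 1.35 of CLP-cDC2 (SD, n = 3), and fell by 1.64 ± 0.19 (SE) on the log2 scale in CLP-cDC2 (limma adjusted p = 0.00028). This call held under every alternative run, with adjusted p of at most 0.0090. Between L- and M-cDC2 the difference was -0.72 ± 0.19 (limma adjusted p = 0.096), called with array weights (0.0086) and without CLP-cDC2 replicate 3 (0.049). The lineage differences of the models differed by 0.91 ± 0.26, not called (limma adjusted p = 0.059), and called without CLP-cDC2 replicate 3 (0.030). Of its exonic bases 552 of 3021 overlap the antisense gene Zmynd15, which averaged 1.62 FPKM in L-cDC2, 2.51 in M-cDC2, 0.522 in CLP-cDC2 and 2.73 in CDP-cDC2 and so was low and high in the same groups, and reads over the shared bases cannot be told apart without strand.

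Cxcl2, the neutrophil attractant, was the lowest of the 9 and was not tested. It read 0, 0.146 and 0.295 FPKM in L-cDC2, 0.509, 0.378 and 0.186 in M-cDC2, 0.456, 0.0609 and 0.478 in CLP-cDC2 and 0.562, 0.733 and 1.06 in CDP-cDC2. The CDP-cDC2 libraries were the highest 3, with 42.5 to 89.5 reads each, and the other groups overlapped. In L-cDC2 replicate 1 it had 0 reads, which allows a level of up to 0.0404 FPKM, the worth of 3 reads and for counting error only. The 12 neutrophil markers, of which Retnlg was at 0 in every library, summed to 1.53 to 50.3 FPKM in L-cDC2, with the high value in replicate 2, and to 2.63 to 18.7 in M-cDC2, 3.74 to 4.97 in CLP-cDC2 and 4.97 to 9.96 in CDP-cDC2.

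The transferred cells were next set beside the reporter cells of the same named lineage. These comparisons share their groups with those above, so they are not independent of them. In CLP-cDC2 against L-cDC2, Ccl5 fell by 2.696 ± 0.25 (SE, limma adjusted p = 3.2e-05), 6.17-fold by the means, and Ccl6 rose by 0.81 ± 0.21 (limma adjusted p = 0.027), 1.86-fold. These 2 of 8 were called where 4.29% of all tested genes were called higher and 6.32% lower. Ccl3 (-0.45, limma adjusted p = 0.094) was lower and Ccl9 (0.79, limma adjusted p = 0.13) higher in every CLP-cDC2 library with neither called, which makes 2 higher and 2 lower without overlap beside 17.8% and 17.9% of all tested genes. Cxcl16 was at -0.59 (limma adjusted p = 0.060), and without CLP-cDC2 replicate 3 at -0.77 and called (0.026). The call of Ccl6 was lost when replicate 2 (0.087) or 3 (0.091) of L-cDC2 or 1 (0.063) or 3 (0.083) of CLP-cDC2 was left out, and those of Ccl3 (0.046) and Ccl9 (0.015) were gained without CDP-cDC2 replicate 3, so that 1 to 4 of the 8 were called when libraries were left out in turn. In this comparison 8 of 9 tested NK cell markers and 4 of 5 T cell markers were also called lower in CLP-cDC2, as were 7 of 13 cDC2 markers, with Sirpa, Zbtb46, Cd209a, Clec10a, Mgl2, Esam and Cd4 the 7. The monocyte and macrophage markers, at 437 to 582 FPKM in CLP-cDC2 and 606 to 664 in L-cDC2, had 2 of 11 tested called lower in CLP-cDC2 and 0 higher, while Ccl6 rose. The part of any of these in the differences of Ccl5 and Ccl6 was not tested.

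In CDP-cDC2 against M-cDC2, 0 of the 8 were called, where 1.62% of all tested genes were called higher and 0.956% lower. Cxcl10 stood 1.98-fold higher by the means in CDP-cDC2 (0.74 ± 0.25, limma adjusted p = 0.12) and Cxcl16 1.27-fold (0.32 ± 0.19, limma adjusted p = 0.36), each with every CDP-cDC2 library above every M-cDC2 library. Ccl4 was lower without overlap (-0.44 ± 0.18, limma adjusted p = 0.20), and so 2 higher and 1 lower did not overlap, beside 14.5% and 9.94% of all tested genes. At an unadjusted p under 0.05, Ccl4 (0.030) and Cxcl10 (0.0099) passed in limma, as did 2929 of all 14538 tested genes. Array weights called 2 of the 8, Ccl6 and Cxcl10, and 2022 of all 14538 tested genes, against 375 in the main fit.

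The levels of each chemokine over the groups can be put in order. For Ccl5 it was L-, M-, CDP- and CLP-cDC2, with overlap between M- and CDP-cDC2 only. For Cxcl16 it was CDP-, M-, L- and CLP-cDC2, with overlap between the last pair only. For Ccl6 it was CDP-, M-, CLP- and L-cDC2, and for Ccl9 M-, CDP-, CLP- and L-cDC2, where only L-cDC2 was apart from its neighbour. For Cxcl10 and Cxcl2 only CDP-cDC2 was apart from the next group, and for Ccl3, Ccl4 and Cxcl9 all neighbours overlapped.

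Among 6038 well-expressed named genes other than each chemokine (6039 for Cxcl9 and Cxcl10, whose own mean was below the 5 FPKM needed), those most alike over the 12 libraries were listed as a description. Ccl5 went with Asb2 (r = 0.98), a ubiquitin ligase subunit of dendritic cells that averaged 275 FPKM in L-cDC2, 238 in M-cDC2, 89.3 in CLP-cDC2 and 184 in CDP-cDC2, with Tob1 (0.96) and with the metalloprotease Adam8 (0.94). Ccl6 went with Ly6i (0.93), Wfdc17 (0.92) and the interferon-induced Ifitm3 (0.92), and Ccl9 with H2-DMb1 (0.94), a chain of the peptide editor of class II molecules, Tmem176b (0.93) and Mcub (0.92). Cxcl9 went with Ifitm2 (0.94), the Toll-like receptor adaptor Myd88 (0.92) and Fabp5 (0.92), and Cxcl10 with Myd88 (0.93), Ifitm2 (0.91) and the entry named Mir692-3 (0.89). Cxcl16 went with Cd300c2 (0.96), the signalling chain Fcer1g of Fc receptors (0.94) and St3gal4 (0.94). Ccl3 went with Zfp688 (0.91), Cog8 (0.90) and Uros (0.89), and Ccl4 with Usp21 (0.91), Chmp1a (0.89) and Tbrg1 (0.88). Between chemokines, Ccl3 and Ccl4 had r = 0.75 and Ccl3 and Ccl5 r = 0.72, while Ccl5 and Ccl9 had r = -0.03. All these r are over the same 12 libraries in 4 groups, and genes that differ between groups in the same order will have high values.

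Of 28 other chemokine genes, 4 passed the filter on low values. Xcl1, the ligand of Xcr1 made by NK and CD8 T cells, averaged 10.2 FPKM in L-cDC2, 0.189 in M-cDC2, 1.95 in CLP-cDC2 and 0 in every CDP-cDC2 library. It was called higher in both lymphoid groups against their myeloid counterparts and lower in CLP-cDC2 than in L-cDC2 (limma adjusted p = 8.0e-06, 0.0026 and 0.00033). The difference between both lineage differences was also called for Xcl1 (1.76 ± 0.35, SE, limma adjusted p = 0.016). The NK cell markers were also high in L-cDC2, while in CLP- against CDP-cDC2 0 of 9 tested NK cell markers were called higher and 1 lower. Of 5 T cell markers tested, 4 were called higher in L- than in M-cDC2 and 2 in CLP- than in CDP-cDC2, with 0 lower in either. The part of these cells in the Xcl1 levels was not tested. Ccl22, which draws regulatory T cells through Ccr4, averaged 0.585 FPKM in L-cDC2, 1.87 in M-cDC2, 0.159 in CLP-cDC2 and 3.26 in CDP-cDC2 and fell by 1.78 in CLP-cDC2 against CDP-cDC2 (limma adjusted p = 0.0017). The monocyte attractant Ccl2 fell by 1.03 in the same comparison (limma adjusted p = 0.024), and Ccl27a was at 0.725 to 1.09 FPKM and not called. The 24 others did not pass the filter.

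Of 9 receptor genes of the 9 chemokines, 5 passed the filter on low values and were tested, and their highest group means included 48.8 FPKM for Ccrl2, an atypical receptor that does not signal like the others, 5.39 for Cxcr3, 4.16 for Ackr1 and 2.08 for Ccr1. Ackr1, an atypical receptor that binds many chemokines, fell by 1.22 in CLP-cDC2 against CDP-cDC2 (limma adjusted p = 0.042), and Ccrl2 and Cxcr3 fell by 0.77 and 0.80 in CLP-cDC2 against L-cDC2 (limma adjusted p = 0.011 and 0.035). No receptor was called in L- against M-cDC2 or in CDP- against M-cDC2. All 8 genes of chemokine cleavage and presentation were tested. Adam10 and Adam17, which shed membrane-bound Cxcl16, were called in none of the 5 comparisons and averaged 5.06 to 7.27 and 7.42 to 10.7 FPKM. The protease Mmp9 averaged 14.1 FPKM in L-cDC2, 6.43 in M-cDC2, 0.460 in CLP-cDC2 and 0.894 in CDP-cDC2, was called higher in L- than in M-cDC2 (1.01) and fell by 3.37 and 1.97 in the transferred cells against L- and M-cDC2 (limma adjusted p of at most 0.0024 for each). Sdc4, a heparan sulfate proteoglycan that can hold chemokines, fell by 1.28 and Mmp12 by 0.93 in CLP-cDC2 against CDP-cDC2 (limma adjusted p = 0.0027 and 0.039). Both were also called lower in CLP-cDC2 against L-cDC2, at -1.49 and -1.34 (limma adjusted p = 0.00094 and 0.0080). Neither was called in L- or CDP-cDC2 against M-cDC2. The difference between both lineage differences was called for Sdc4 (1.88) and Mmp9 (1.39), with limma adjusted p of 0.0054 and 0.0041. It was not called for Mmp12 (limma adjusted p = 0.096).

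The interferon pathway, which drives Cxcl9 and Cxcl10, was read from 20 genes, all tested. In CLP- against CDP-cDC2, 6 were called lower and 1 higher, beside 6.12% and 7.02% of all tested genes. The list's median difference was -0.47 beside -0.01 over all tested genes. The called genes with the largest differences were the guanylate-binding protein Gbp2 (-1.11), the transcription factor Irf8 (1.10) and the antiviral genes Ifit1 (-0.98) and Ifit3 (-0.88), with limma adjusted p of 0.0050 to 0.017. In L- against M-cDC2, 1 of the 20 was called, Irf8, which fell by 0.95 (limma adjusted p = 0.033). In CDP- against M-cDC2, Jak2 (1.05) and Gbp2 (0.97) were called higher and Irf8 (-1.18) lower (limma adjusted p = 0.037, 0.041 and 0.012). In CLP- against L-cDC2 Irf8 alone was called, at 0.86 higher (limma adjusted p = 0.020). The calls of Irf8 are set beside markers of other cell types below.

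The NF-kB pathway, by which LPS turns on Ccl3, Ccl4, Ccl5 and Cxcl2, was read from 20 genes, 17 of them tested. In CLP- against CDP-cDC2, 7 were called lower and 0 higher, beside 6.12% and 7.02% of all tested genes. The list's median difference was -0.68, beside -0.01 over all tested genes. Il1b, the inflammatory cytokine, fell by 1.87 from 222 to 59.7 FPKM. Bcl3, a co-regulator, was at -1.58, the LPS co-receptor Cd14 at -1.33 and Relb, a subunit of the factor, at -1.05 (limma adjusted p of at most 0.0021 for each). In CLP- against L-cDC2, 5 were called lower and 0 higher, beside 6.32% and 4.29% of all tested genes. The largest falls were those of Bcl3 (-1.19), Relb (-1.14), Tnf (-0.93) and Nfkb2 (-0.90). In L- against M-cDC2 2 were called lower, Cd14 (-1.23) and Il1b (-0.95), with limma adjusted p of 0.0069 and 0.0020, and the list's median was 0.04, beside 0.04 over all tested genes. Cd14 also belongs to the monocyte and macrophage markers above and is counted in both lists. In CDP- against M-cDC2 Il1b alone was called, 0.81 higher (limma adjusted p = 0.012).

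Markers of the remaining cell types were as follows. The 10 B cell markers summed to 190 to 212 FPKM in L-cDC2 and 74.7 to 107 in the other groups, and the 8 plasma cell markers to 1546 to 2283 in L-cDC2 and 412 to 1026 in the others, the highest of these a CLP-cDC2 library. The 9 markers of cDC1, the other conventional dendritic cell type, summed to 136 to 160 FPKM in L-cDC2, 215 to 238 in M-cDC2, 198 to 216 in CLP-cDC2 and 161 to 192 in CDP-cDC2. Of 8 cDC1 markers tested, 4 were called lower in L- and 4 lower in CDP- than in M-cDC2. In CLP-cDC2 4 were called higher than in CDP-cDC2 and 4 higher than in L-cDC2. In each of these comparisons 0 went the other way, and Irf8 was called in the same direction. The part of cDC1 in the Irf8 differences was not tested. The 8 plasmacytoid dendritic cell markers summed to 142 to 277 FPKM in CLP-cDC2 and 54.6 to 117 in the other groups. In CLP-cDC2 Bst2 averaged 108 FPKM, Ly6d 43.0 and Cox6a2 27.4, and Ly6d was also at 40.1 in L-cDC2. Of 5 plasmacytoid markers tested, Ly6d (3.76) and Cox6a2 (2.95) were called higher in CLP- than in CDP-cDC2, and 0 lower. Cox6a2 (2.17) and Bst2 (0.91) were called higher in CLP- than in L-cDC2, and 0 lower. Siglech (5.13 FPKM in CLP-cDC2) and Tcf4 (4.23) were not called in CLP-cDC2 against CDP- or L-cDC2. The Siglech differences were 1.04 and 1.21 (limma adjusted p = 0.084 and 0.057). The 6 basophil and mast cell markers summed to at most 0.464 FPKM in any library, with Mcpt8 at 0 in all. No B cell, plasma cell or cDC1 marker was at 0 in all libraries of a group, and of the plasmacytoid markers Klk1 was at 0 in L- and CDP-cDC2. Their part in the chemokine levels was not tested.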

How the data were processed

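SMART-Seq HT cDNA and Nextera XT kits gave the 12 libraries, per the labels' protocols, and their groups and replicate numbers came from the sample titles. The authors deposited 1 table of FPKM for 55322 genes, with gene lengths. DESeq2 1.20.0, featureCounts 2.0.1, STAR 2.7.9a, cutadapt 3.7, Trimmomatic 0.39 and Trim Galore 0.6.7, and the builds GRCm38 and GRCh38, are named with no role or order per the submitters' processing notes. The strand setting and the build of the coordinates are not given in the sources used here. The deposited gene positions do not match the GRCm38.p6 positions of the printed upstream stretches.

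Read depth was worked out from the smallest steps of the FPKM values. All (100%) lay on steps of 0.01 read (tolerance 0.02 steps), and 44.8 to 53.2% of values above 0 were whole reads, if the commonest low value is 1 read. The libraries have no molecular identifiers, so the floor of 3 reads covers counting error only. Each tested chemokine had at least 73 reads in every library.

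Genes with at least 1 FPKM in at least 3 libraries (14538) were fitted as log2(FPKM + 1), which understates changes of low genes, with limma 3.58.1 in R 4.3.3 (lmFit, contrasts.fit, eBayes with trend, two-sided) on all 12 libraries at once. The 5 contrasts were the lineage contrast of each model, their difference, and the transferred against the reporter cells of each lineage. Benjamini-Hochberg adjustment ran over every tested gene of a contrast. All 9 members are named, and of each other list at most 4 called genes per contrast, those with the largest difference. For likeness, the 3 genes with the highest r are named among those with a proper gene name and a mean of at least 5 FPKM. The members, lists and tests were chosen with earlier results of these data known.

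Alternatives were pseudocounts of 0.1 and 5 FPKM, no filter or one of 5 FPKM, quantile and median-of-ratios scaling, the 2 groups alone, array weights, no trend, protein-coding genes only, voom on the recovered reads, a replicate block and each library left out in turn. Leaving out the third libraries of CDP-cDC2 and M-cDC2 at once was chosen after seeing the data. The scripts were tested on simulated data. In GENCODE M21 (GRCm38), transcripts of Ccl3, Ccl4, Ccl5 and Ccl6 shared 0 words of 50 bases with other genes. Those of Cxcl2 shared 5.84% with Cxcl3, those of Cxcl10 3.59% with Art3 and those of Cxcl16 16.9% with Zmynd15. Transcripts of Ccl9 shared 1.97% of their words with 463 other genes, and those of Cxcl9 shared 0.472% with 119. One receptor gene is not reported here.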

Additional observations from a re-analysis of the deposited data

Results flagged for a closer look

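Among the 8 tested members, only Ccl5 had a lineage difference called unlike between the models by a test of the difference itself. The reporter difference (L-cDC2 minus M-cDC2) was 2.43 log2 units above the transfer difference (CLP-cDC2 minus CDP-cDC2). Levels in L-cDC2 were above those in M-cDC2 in every library, without the reporter difference alone being called, and levels in CLP-cDC2 were below those in CDP-cDC2 in every library. NK cell and T cell markers were high in L-cDC2 and cDC2 markers low in CLP-cDC2, and their part in the difference was not tested.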

How the results depend on the processing

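Ccl6 and Ccl9 in L- against M-cDC2, Ccl5 and Cxcl16 in CLP- against CDP-cDC2, Ccl5 in the difference between both, and Ccl5 in CLP- against L-cDC2 kept their direction and their call under every alternative run. Where counts below changed, the cause was not tested. In L- against M-cDC2, 252 genes were called, 137 with a filter of 5 FPKM and 838 with array weights, which called 5 of the 8 chemokines, and 181 to 290 genes and 2 to 3 chemokines when each library was left out in turn. In CLP- against CDP-cDC2, 1910 genes were called, 1067 without a filter, 687 with the 2 groups alone and 983 to 1971 with a library left out. Of the chemokines 5 were called there, 2 without a filter or with the 2 groups alone, 3 with quantile normalization or a filter of 5 FPKM, under which fewer chemokines were tested, and 2 to 6 with a library left out. In the difference between both, 871 genes were called, 255 without a filter, 2044 with array weights, 462 without the third library of both myeloid groups (CDP- and M-cDC2), and 312 to 1238 with 1 library left out. Of the chemokines 1 was called there, 2 with a filter of 5 FPKM, array weights or protein-coding genes only, and 1 to 2 with a library left out. In CLP- against L-cDC2, 1542 genes were called, 947 without a filter, 2480 with array weights, 2665 without those 2 libraries and 640 to 2348 with 1 left out, and of the chemokines 2, 1, 4, 4 and 1 to 4. In CDP- against M-cDC2, 375 genes were called, 103 without a filter, 47 with the 2 groups alone, 2022 with array weights, 616 among protein-coding genes only, 665 with voom, 101 without those 2 libraries and 74 to 589 with 1 left out. Of the chemokines 0 were called there, and 2 with array weights.

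Whether replicate numbers pair the libraries could not be decided. Same-number correlations of deviations were not all above 0.1 in any pair of groups. They were 0.13, -0.22 and -0.08 for L- and M-cDC2, and -0.03, 0.28 and 0.09 for CLP- and CDP-cDC2. With so few libraries a group, these correlations can neither show nor exclude pairing. With a replicate block, 528 genes were called in the difference, 649 in CLP- against L-cDC2 with 1 chemokine, and 34 in CDP- against M-cDC2. Under the block Ccl6 lost its call in CLP- against CDP-cDC2 (limma adjusted p = 0.061) and in CLP- against L-cDC2 (0.072), and Ccl5 gained one in L- against M-cDC2 (0.044).

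Signs turned only for differences that were not called. In L- against M-cDC2 Ccl4 was 0.0056 with quantile normalization, 0.025 without the 2 libraries, and -0.13 to 0.025 with 1 left out. In CLP- against CDP-cDC2 Ccl4 was -0.0049 with quantile normalization and -0.035 to 0.28 with a library left out, and Ccl3 was -0.18 to 0.11. In the difference Ccl4 was 0.011 with quantile normalization and -0.32 to 0.0010 with a library left out, and Cxcl9 was -0.13 to 0.52. In CDP- against M-cDC2 Ccl5 was 0.04 with array weights, and Ccl9 was -0.76 to 0.0072 with a library left out. Of the 9 chemokines, depth bears most on Cxcl2, at 0 to 89.5 reads a library.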
